A study of Homo sapiens with 2 samples.

Results

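The MHC class I antigen presentation genes are the genes that build, load and switch on the class I complex. Here they were HLA-B, HLA-C, HLA-E, HLA-F, B2M, TAP1, TAP2, TAPBP and NLRC5. They were chosen by name, and every array probe annotated with one of these symbols was taken, which gave 9 of 34757 gene symbols and 19 of 58199 probes. Total RNA was taken from A375, an established human melanoma cell line. The NC array held RNA of A375 cells given the negative control siRNA (NC), and the si-THOC2 array held RNA of A375 cells given an siRNA against THOC2, both 48 h after siRNA treatment. THOC2 is a subunit of the THO complex, which couples transcription to the export of mRNA from the nucleus.

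There was 1 array per condition, so every difference below is a difference between these 2 arrays, with no replicate check and no test. The error given is the technical SD, the spread of a difference that repeated spots on the same arrays gave, taken from the 25 repeated probes nearest in signal. For a probe with several spots it is divided by the square root of their mean number, so there it is the error of a mean. Few repeated probes are dim. Only 6 of 300 had a log2 signal between 4 and 6, with a median SD of 0.29, so the technical SD of a dim probe comes mostly from brighter ones and can be too small. It covers the measurement on the array and not the culture, the transfection or the RNA. The methods listed several THOC2 siRNAs, and the one used here was given by the labels only as a number. The source names of the pair named the opposite condition from the titles and descriptions, and the titles and descriptions were followed. Both THOC2 probes were lower on the array that these assign to si-THOC2. The probe at chrX:122734486-122734545 (hg19) had a signal of 136 on the NC array and 40.9 on the si-THOC2 array, a log2 difference of -1.42 (technical SD 0.13). The other had 67.3 and 35.1, a log2 difference of -0.63 (technical SD 0.14). With normexp background correction these differences were -0.80 and -0.23. The culture medium in the labels (DMEM with 15% serum) also differed from the one in the methods. Of the melanocyte lineage markers, SOX10 was bright on both arrays, with signals of 6196 and 5196, while PMEL, TYR and TYRP1 were not well above background on either. MITF was measured on both with a log2 difference of -0.03, S100B with -0.66 and DCT with 0.75, the last from signals of 18.0 and 24.4. MLANA was well above background only on the si-THOC2 array, at 18.7. Of the 5 compared markers of this lineage 1 was lower and 2 were higher at 1.5-fold, beside 7.19% and 6.03% of all compared genes. When both arrays had to be above background, 1 was lower and 1 was higher. AXL, a marker of dedifferentiated melanoma, was bright on both as well. Of the other listed markers of this state, NGFR and EGFR were dimmer than AXL, and SOX9 was not well above background on either array. Of the leukocyte markers, PTPRC, CD3E and CD14 had a probe well above background, with signals between 24.0 and 37.4, while MS4A1, CD3D, ITGAM and NKG7 were not well above background.

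MHC class I molecules show peptides from inside the cell to CD8 T cells. A heavy chain pairs with the light chain beta-2-microglobulin, and the pair is held in the endoplasmic reticulum until a peptide is bound. The TAP1 and TAP2 transporter brings in peptides that the proteasome has cut, and tapasin, the product of TAPBP, ties the empty class I molecule to the transporter. NLRC5 is the transactivator of the class I genes, as CIITA is of the class II genes, and interferons raise the whole group. Melanoma cells often lose class I from their surface, which hides them from T cells.

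The probe sequences decide which transcript each value belongs to. A pair of HLA-B probes and one HLA-C probe were annotated to overlapping places on the minus strand of chromosome 6 (hg19). They share 41 bases. The 30 bases at chr6:31321674-31321703 are shown because they hold the base at which these probes differ, in capitals.
HLA-B, A_33_P3424800: taagtcaattcctggaaGttgagagagcaa
HLA-B, A_33_P3379947: taagtcaattcctggaaTttgagagagcaa
HLA-C, A_33_P3424803: taagtcaattcctggaaGttgagagagcaa
Counted from 1 at the 5′ end of these 30 bases, the 2 HLA-B probes differ by G18T. The HLA-C probe and the first HLA-B probe differ at 0 of the 41 shared bases. By this stretch HLA-B and HLA-C transcripts cannot be told apart with that pair of probes, and their signals are given here under the symbols of the array. HLA genes also vary between people, and how the probes fit the HLA alleles of A375 was not analysed here.

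One HLA-E probe, A_33_P7431456 at chr6:30460882-30460941, shares a run of at least 20 bases with 6 probes of 6 other gene symbols, the longest run being 48 bases. In all, 4 of the 19 probes shared a run of at least 20 identical bases with a probe of another symbol, and 15 did not. The probes below are among those 15, and their values under HLA-B, HLA-F, B2M and NLRC5 are given further on. Only array probes were compared, so the absence of a shared run does not show that a probe binds a single gene. Whether these probes also bind other transcripts was not tested.
HLA-B, A_33_P3399208: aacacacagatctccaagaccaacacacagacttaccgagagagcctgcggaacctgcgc
HLA-F, A_33_P3379939: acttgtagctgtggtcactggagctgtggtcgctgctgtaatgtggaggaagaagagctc
HLA-F, A_33_P3379967: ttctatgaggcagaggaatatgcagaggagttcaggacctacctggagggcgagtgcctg
B2M, A_23_P37441: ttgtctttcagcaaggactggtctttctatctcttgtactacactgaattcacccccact
NLRC5, A_32_P416583: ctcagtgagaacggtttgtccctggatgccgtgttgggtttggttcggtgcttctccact

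The class I genes differed little between A375 cells with si-THOC2 and those with NC. On each array 17 of the 19 probes stood well above background and could be compared, and 2 (one of TAP2 and one of TAPBP) did so on neither. No compared probe passed 2-fold. The share of all 25345 compared probes that was lower at 2-fold was 3.33%, and the share that was higher was 2.93%. At 1.5-fold the members again gave 0 lower and 0 higher probes, while 7.69% of all compared probes were lower and 6.14% were higher. Most members are bright, and bright probes pass these limits less often. At 1.5-fold 0.970% were lower and 1.22% higher among the 12373 probes whose log2 signal exceeded 7 on the NC and the si-THOC2 array alike. A count of 0 among 17 probes is therefore near what these bright probes give. Of the 17, 14 had a signal over 128 on the NC array.

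By gene, as the mean of its compared probes, the log2 differences ran from -0.12 for TAP2 to 0.14 for NLRC5. The median over the 9 genes was -0.03, against 0.02 over all 17514 compared genes. Of the 9, 6 lay below 0, as did 46.6% of all genes. None passed 1.5-fold, which 7.19% of all genes did downward and 6.03% upward. None passed 2-fold either, against 3.34% and 2.96%.

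**Figure D1:**
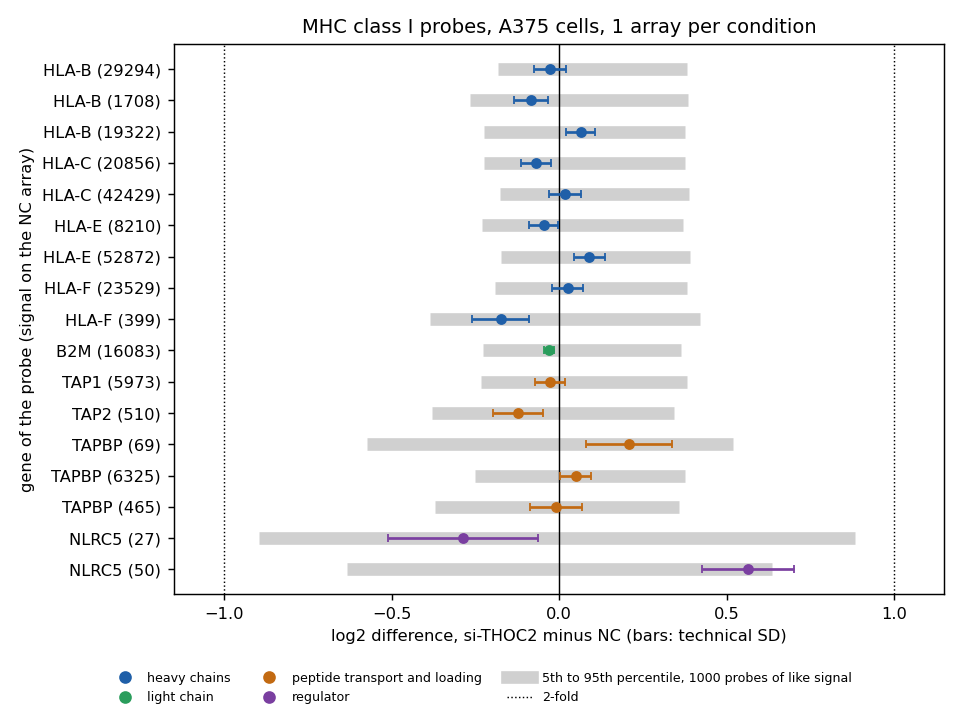
Log2 difference (si-THOC2 minus NC, x axis) of each of the 17 compared class I probes, with the gene and its NC signal on the y axis. Points are single probes, horizontal bars the technical SD, grey bars the 5th to 95th percentile of the 1000 probes nearest in signal and dotted lines 2-fold. Every point lies inside its grey bar, and the NLRC5 probe at 0.56 lies farthest from 0.

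The heavy chains were bright on both arrays. They form the peptide groove of the class I molecule. The 3 HLA-B probes had signals of 29294.5, 19322 and 1708 on the NC array and of 23202, 16296 and 1300 on the si-THOC2 array. Their log2 differences after scaling each array to its 75th percentile were -0.03 (technical SD 0.048), 0.06 (0.045) and -0.08 (0.051). The si-THOC2 array was dimmer, with a 75th percentile of 6.31 on the log2 scale against 6.62, so lower signals and differences near 0 stand together. The probe at 1708, printed above, shares no run with another symbol, and the array annotation gave no coordinates for it. For HLA-C the probe at chr6:31236617-31236676 had 20856 and 16039, a log2 difference of -0.07 (technical SD 0.045). The HLA-C probe placed among the HLA-B probes had 42429 and 34665, a difference of 0.02 (technical SD 0.048). No probe of either gene differed by more than 2 technical SD.

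HLA-E presents leader peptides of other class I chains to natural killer cells, and HLA-F is a class I chain that varies little between people. The HLA-E probe at chr6:30460729-30460788, with no shared run, had a signal of 8210 on the NC array and 6418 on the si-THOC2 array, a log2 difference of -0.05 (technical SD 0.044). The probe with the repeated stretch had 52872 and 45414, a difference of 0.09 (0.046). The probes gave opposite signs, both small. For HLA-F, the probe at chr6:29693280-29693338 had 23529 and 19317, a difference of 0.03 (technical SD 0.046). The other, at chr6:29692114-29692173, had 399 and 285, a difference of -0.17 (0.084). The latter was the lowest value among the probes of the heavy chains, at 2.07 technical SD, and lay within the 5th to 95th percentile of probes of like signal (-0.39 to 0.42).

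B2M, the light chain shared by all class I molecules, was the member measured most often on each array. Its probe at chr15:45007773-45007832 is printed several times, and spots with an outlier mark were left out. On the NC array 8 spots ran from 15825 to 16455 with a median of 16090, and on the si-THOC2 array 10 spots ran from 12195 to 13606 with a median of 12698. The unscaled spots of the arrays did not overlap. After scaling, the log2 difference was -0.03 (technical SD 0.015), which is a fold of 0.979. This was 2.14 technical SD, where the SD is that of a mean over repeated spots. Single spots had a log2 SD of 0.018 on the NC array and 0.044 on the si-THOC2 array. The 1000 probes nearest in signal had a median of 0.08 and a 5th to 95th percentile range of -0.23 to 0.36.

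The transporter and tapasin gave small differences too. TAP1 at chr6:32813210-32813269 had signals of 5973 on the NC array and 4729 on the si-THOC2 array, a log2 difference of -0.03 (technical SD 0.045). TAP2 was read by the probe at chr6:32793222-32793281, with 510 and 378 and a difference of -0.12 (0.075). Neither subunit of the transporter thus differed by more than 2 technical SD. TAPBP had 3 compared probes. The brightest, at chr6:33267718-33267777, had 6325 and 5280, a difference of 0.05 (technical SD 0.045). The probe at chr6:33271911-33271970 had 465 and 373, a difference of -0.01 (0.078). The probe annotated across 7889 bases, chr6:33273141-33281029, had 69.2 and 64.5, a difference of 0.21 (0.13). The value of TAPBP as a gene, 0.08, rests in part on this dim probe.

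NLRC5 was dim and its probes disagreed. The probe at chr16:57077428-57077487, printed above, had a signal of 50.2 on the NC array and 59.8 on the si-THOC2 array. It was the only one of the 17 compared probes whose unscaled signal was higher on the si-THOC2 array. Its log2 difference was 0.56 (technical SD 0.14), a fold of 1.48. Of the 25 repeated probes behind that SD 21 were brighter, and the difference was under 2 times the median SD of 0.29 given above for dim repeated probes. The probe at chr16:57116822-57116881 had 27.3 and 18.0, a difference of -0.29 (0.22). Probes of like dimness spread widely. The 5th to 95th percentile of the 1000 nearest in signal was -0.63 to 0.63 for the former and -0.89 to 0.88 for the latter. With normexp background correction the values were 0.31 and 0.01, so neither the size nor, for the latter, the sign was the same.

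Over the members, 3 of 17 probes differed by more than 2 technical SD. These were the dim HLA-F probe, B2M and the NLRC5 probe that was higher. The SD of B2M is that of a mean over repeated spots, and that of NLRC5 rests on brighter probes. Of the 17, 0 lay outside the 5th to 95th percentile of probes of like signal. The 14 probes with a signal over 128 on the NC array, from 8 genes, ran from -0.17 to 0.09 with a median of -0.03. In the authors' normalized values all 14 were below 0, from -0.20 to -0.03. The sign relative to 0 depends on the scaling, since 9 of the same 14 were below 0 after scaling to the 75th percentile. Bright probes lay above 0 under that scaling, with a median of 0.06 among the 12373 with a log2 signal over 7. Each of the 14 lay below the median of the 1000 probes nearest to it in signal. With lowess centring the 14 ran from -0.20 to -0.03, with a median of -0.11.

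**Figure D2:**
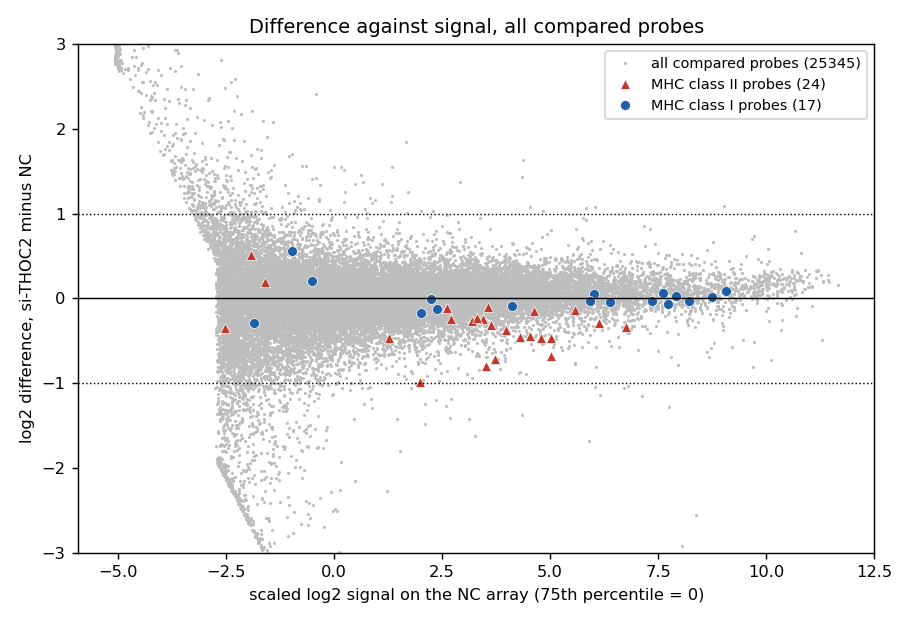
Log2 difference (si-THOC2 minus NC, y axis) against the scaled log2 signal on the NC array (x axis) for the 25345 compared probes in grey, the 17 class I probes as blue circles and the 24 class II probes as red triangles. Dotted lines mark 2-fold, and 328 probes beyond 3 on the y axis are not shown. The bright class I probes lie close to 0, and all but 2 class II probes lie below 0.

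The genes that cut peptides and help to load them showed no call either. All 11 were compared, and their median was -0.04. At 1.5-fold 0 were lower and 0 higher, beside 7.19% and 6.03% of all genes. All 11 were measured on both arrays, and among all genes so measured 2.61% were lower and 3.53% higher. A count of 0 among 11 genes is near that share. CALR, a chaperone of the loading complex, had the highest value, with signals of 32768 and 32330 and a log2 difference of 0.29 (technical SD 0.046). Its block of spots had a median of 0.15, and with centring within blocks the CALR difference was 0.14. CANX, the chaperone that receives new heavy chains, had the lowest, -0.34 as the mean of a dim probe (-0.47, technical SD 0.14) and a brighter one (-0.21, 0.062). PDIA3 and TAPBPL, which take part in loading and peptide editing, both had a mean of -0.05. The 2 PDIA3 probes gave 0.20 and -0.31. The peptide-trimming enzymes ERAP1 and ERAP2 had -0.04 and -0.20. Of the immunoproteasome subunits, PSMB8 had 0.17, PSMB9 -0.04 and PSMB10 0.11. The proteasome activator subunits PSME1 and PSME2 had 0.04 and -0.12. The constitutive catalytic subunits that immunoproteasome subunits replace (PSMB5, PSMB6 and PSMB7) lay between 0.05 and 0.12.

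The upstream genes were mixed. Of 12 transcription factors that bind class I promoters, 0 were lower and 1 was higher at 1.5-fold, beside 7.19% and 6.03% of all genes, and the median was -0.02. The higher one was IRF2, with a dim signal of 24.2 on the NC array and 31.8 on the si-THOC2 array, a log2 difference of 0.70 (technical SD 0.15), and this call was lost with normexp. RFXAP, a subunit of the RFX complex that NLRC5 and CIITA work through, had 107.4 and 62.7, a difference of -0.47 (0.13). IRF1, an interferon-induced activator named after its value was seen, had 1299 and 849, a difference of -0.30 (0.059). Of 13 interferon receptor and STAT pathway genes none passed 1.5-fold, with a median of -0.08. The largest differences among them were -0.43 for both IRF9 and IFNAR1. Of 20 interferon-induced genes 17 were compared, and 14 of these (82.4%) were below 0, beside 46.6% of all genes, with a median of -0.26. At 1.5-fold 1 of the 17 was lower (5.88%, beside 7.19% of all genes), IFI27, which was well above background only on the NC array. That call was lost with normexp, with dim signals placed at the limit of detection and when both arrays had to be above background. IFIH1 had -0.51 (technical SD 0.085) and DDX58 a mean of -0.49. The class I members, which interferons also induce, had a median of -0.03.

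The class II genes lay lower than the class I genes on the same arrays. Class II molecules show peptides taken up from outside the cell to CD4 T cells, and melanoma cells can express them. All 12 class II genes were below 0, with a median of -0.36 and a range of -0.79 to -0.06, and 11 of the 12 lay below the lowest class I member. HLA-DOA was below 0 only as the mean of probes with -0.99 and 0.51. HLA-DOB was well above background on only 1 array. At 1.5-fold 2 were lower and 0 higher, beside the 7.19% and 6.03% of all genes, and none passed 2-fold. With lowess centring, with normexp and with dim signals placed at the limit of detection, 11 of the 12 were below 0. HLA-DMB, part of the class II peptide editor, had 1127 and 524, a log2 difference of -0.79 (technical SD 0.062). HLA-DQA1 had a mean of -0.70 over probes with -0.71 and -0.68. HLA-DRA and CIITA were named for their roles after their values were seen. HLA-DRA, the nearly invariant alpha chain of HLA-DR, had 2723 and 1586, a difference of -0.47 (0.058). CIITA, the class II transactivator, had 1549 and 963 on its compared probe, a difference of -0.38 (0.051). By probe, 22 of 24 compared class II probes were below 0. All 21 of those with a signal over 128 on the NC array were below 0, from -0.99 to -0.10. Of the 24, 13 lay below the 5th percentile of the 1000 probes nearest in signal, against 0 of 17 class I probes. The 24 come from 12 genes, with 5 each for HLA-DPB1 and HLA-DQB1, so they are not separate readings. Shared stretches among class II probes were not searched. Fewer cells that express class II genes and less class II RNA per cell cannot be told apart in such bulk RNA. Some leukocytes carry class II. The compared leukocyte markers were dim, with differences of 0.37 (CD14), 0.39 (PTPRC) and 0.87 (CD3E). The part of leukocytes in the class II values was not tested.

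**Figure D3:**
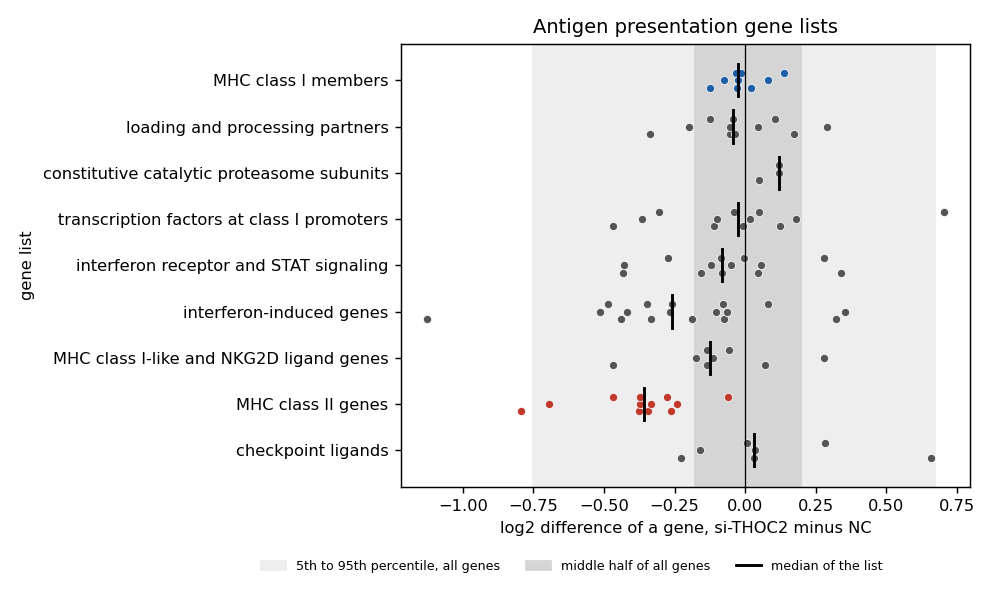
Log2 difference of each compared gene (si-THOC2 minus NC, x axis) for the class I members and 8 related lists (y axis). Points are genes, black ticks list medians and grey bands the spread of all 17514 compared genes. The class I members sit between -0.12 and 0.14, and the class II genes between -0.79 and -0.06.

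The remaining lists held other ligands on the cell surface. The class I-like and NKG2D ligand genes share the class I fold or signal stress to natural killer cells. Of 12 such genes 8 were compared, with a median of -0.12. At 1.5-fold 0 of the 8 passed, beside 7.19% of all genes downward and 6.03% upward. The largest differences were -0.47 for RAET1E, whose probes gave -0.92 and -0.02, and 0.28 for MR1, which presents vitamin B metabolites. Of 9 checkpoint ligand genes 7 were compared, with a median of 0.03. LGALS9 was the 1 gene of the 7 past 1.5-fold upward, beside 6.03% of all genes, with each of its compared probes well above background on only 1 array and with opposite signs (2.10 and -0.78). That call was lost with normexp and when both arrays had to be above background. CD276 had 0.28. TNFRSF14, the ligand of BTLA, had a mean of -0.16 over probes with -0.44 (technical SD 0.056) and 0.11 (0.11).

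The promoter sequences of class I genes carry short motifs for the factors named above. RefSeq promoter windows on GRCh38.p14 were matched for 7 of the 9 members, and HLA-E and NLRC5 were not matched. Searched on both strands in the 250 bases before the start, the Y box TGATTGG, bound by NF-Y, was found in 4 of the 7 (B2M, HLA-B, HLA-C and HLA-F) and in 6.62% of all 35116 windows. It was also found in 5 of 10 class II genes with a window. HLA-DRA and CIITA had no window and were not searched. GAAA followed after any 2 bases by GAAA, the repeated core of the interferon-stimulated response element, was found in 5 of the 7 (B2M, HLA-F, TAP1, TAP2 and TAPBP), in 0 of the 10 and in 3.02% of all windows. The X2 box letters TGACGC, bound by CREB and ATF factors, were found in 3 of the 7 (HLA-B, HLA-C and TAP2), in 0 of the 10 and in 7.67% of all windows. Only these exact letters were searched, so a count of 0 does not show that the class II promoters lack the element. The stretches below end at the base before the start and show these motifs in capitals, reverse complements included. They are chr6:31357180-31357359 (minus strand) for HLA-B, chr6:29723254-29723433 (plus) for HLA-F, chr15:44711337-44711516 (plus) for B2M, chr6:33314079-33314138 (minus) for TAPBP and, for a class II gene, chr6:32953098-32953277 (minus) for HLA-DMA.
HLA-B: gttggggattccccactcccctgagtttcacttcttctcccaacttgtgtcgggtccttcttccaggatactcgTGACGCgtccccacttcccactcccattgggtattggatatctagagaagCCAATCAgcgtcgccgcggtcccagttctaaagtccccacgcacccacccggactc
HLA-F: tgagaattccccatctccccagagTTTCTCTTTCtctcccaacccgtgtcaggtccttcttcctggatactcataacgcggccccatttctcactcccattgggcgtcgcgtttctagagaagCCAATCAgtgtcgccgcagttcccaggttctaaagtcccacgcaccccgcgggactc
B2M: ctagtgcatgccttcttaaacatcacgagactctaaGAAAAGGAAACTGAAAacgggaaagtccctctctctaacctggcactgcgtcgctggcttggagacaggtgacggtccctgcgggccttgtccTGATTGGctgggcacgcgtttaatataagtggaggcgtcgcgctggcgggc
TAPBP: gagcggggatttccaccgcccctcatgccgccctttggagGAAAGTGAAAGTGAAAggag
HLA-DMA: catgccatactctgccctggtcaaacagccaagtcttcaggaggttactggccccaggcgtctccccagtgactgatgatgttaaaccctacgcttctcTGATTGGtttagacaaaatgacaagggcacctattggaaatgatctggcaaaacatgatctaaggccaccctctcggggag
In B2M and TAPBP the printed run holds 2 overlapping copies of the response element letters. The Y box lies 56 bases before the start in HLA-B, 57 in HLA-F and 51 in B2M, and 81 in HLA-DMA. These matches are letters in a window and were not measured on the arrays.

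The class II median lay below the class I median under each way of processing the arrays, while the place of the class I median relative to 0 moved. Across the 9 alternatives that change scaling, background or the probes compared, the class I median ran from -0.16 to -0.02 and the class II median from -0.42 to -0.35. Taking only a gene's brightest probe gave a class I median of 0.02, with NLRC5 then at 0.56.

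**Figure D4:**
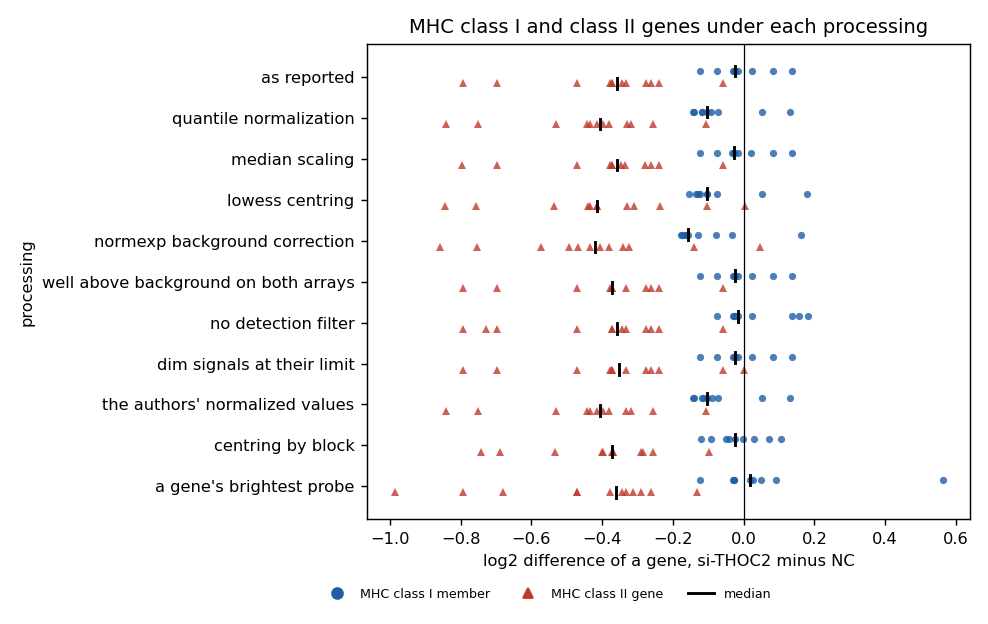
Log2 difference of each class I member (blue circles) and class II gene (red triangles) on the x axis, si-THOC2 minus NC, under the processing as reported and 10 alternatives (y axis). Black ticks are medians. The class I medians lie between -0.16 and 0.02, and the class II medians lie below them in each.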

How the data were processed

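Total RNA of A375 cells was measured on 1-colour Agilent SurePrint G3 v3 arrays, 1 for NC and 1 for si-THOC2. The authors deposited scanner intensity values per spot, made with Agilent Feature Extraction 10.7.1.1 (per the submitters' processing notes), in which the processed signal is background-subtracted, and flags per spot. Normalized log2 values, deposited by the authors for the same arrays, served as an alternative. A deposited table of fold changes and log2 fold values holds the study's own comparison and was not used. The methods' threshold of 2-fold was kept, and the t-test they name was not run because it needs replicates.

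Control spots and spots marked as outliers (147 on the NC array, 168 on the si-THOC2 array) were removed, saturation was marked for none, and repeated spots were combined as the mean of their log2 signals. Each array was centred on its 75th percentile. The comparison took the 25345 probes that were well above background on 1 array or more, of which 22207 were so on both. On the NC array 42.3% of probes were well above background and on the si-THOC2 array 39.4%. Genes were given as means over compared probes. The technical SD came from the 25 repeated probes nearest in signal among 300, divided by the square root of the number of spots of the probe. The number of arrays limits the precision.

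The named genes were THOC2, all members, all loading and processing partners and, from each other list, the genes past 1.5-fold or, where fewer than 2 passed, the 2 with the largest differences among probes well above background on both arrays. The marker genes, IRF1, HLA-DRA, CIITA and those of the closing section were named outside this rule. The members and lists were chosen with earlier results of these data known. Probe coordinates are those of the array annotation (hg19), and exon and intron annotation of that build was not used here. NECTIN2 was read under its older symbol on the array. Alternatives were quantile normalization, median scaling, lowess centring (span 0.3), normexp (offset 50, limma 3.58.1), other detection filters, the authors' values, centring within blocks of spots, a gene's brightest probe and folds of 1.5 and 3. The calculation was tested on simulated data. Python 3.11.15 and R 4.3.3 were used.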

Additional observations from a re-analysis of the deposited data

How the results depend on the processing

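The counts of class I probes called lower and higher at 2-fold were 0 under every alternative run, including folds of 1.5 and 3. The class I median of -0.03 became -0.10 with quantile normalization, with lowess centring and with the authors' normalized values, and -0.16 with normexp. Each move was larger than 0.045, the median technical SD of the member genes, which is not an error of the class I median. Of 90 member gene values over 10 alternatives, 34 moved by more than their technical SD, and they ran from -0.18 to 0.56. The THOC2 difference of -1.03 became -0.51 with normexp and -1.42 with the brightest probe. The 2 class II genes lower at 1.5-fold became 0 at a fold of 2. The median of all genes moved by more than 0.1 only without a detection filter, to 0.24. The cause of these moves was not tested. With signals under the lowest well above background (14.7 on the NC array, 15.9 on the si-THOC2 array), the second TAP2 probe and the fourth TAPBP probe give no comparison. No paired analysis was possible because each condition has only 1 array.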

Other observations

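Several probes next to or within the class I loci were looked at after their values were seen. HLA-J, a class I pseudogene, had a probe at chr6:29975243-29975302 with a signal of 230 on the NC array and 38.3 on the si-THOC2 array, a log2 difference of -2.28 (technical SD 0.13). It lay beyond 2-fold, unlike any class I member. The other HLA-J probe, at chr6:29977388-29977447, had 23271 and 17525, a difference of -0.10 (technical SD 0.015). HLA-G, a class I gene best known from the placenta, had 61415 and 49000, a difference of -0.02 (technical SD 0.046). Whether the bright HLA-J and HLA-G probes also bind other class I transcripts was not tested. PSMB8-AS1 had a probe at the place of the TAP1 probe on the opposite strand, with 61.2 and 41.0 and a difference of -0.27 (technical SD 0.14), while TAP1 had -0.03.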
